A study of Mus musculus with 6 samples.

Results

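The tumour necrosis factor (TNF) ligand and receptor superfamilies were described in D4M-3A mouse melanoma cells with and without CRISPR-Cas9 targeting of Nfkbiz. Members were taken by gene symbol: every row named Tnfsf or Tnfrsf with a number, plus Tnf, Lta, Ltb, Fas, Fasl, Cd27, Cd40, Cd40lg, Cd70, Ltbr, Ngfr and Edar. This gave 44 of the 43043 rows of the expression tables, of which 43 are family genes (17 ligands and 26 receptors). The other row is Tnfsf13os, a long noncoding RNA on the strand opposite Tnfsf13, which the name pattern also caught and which encodes neither a ligand nor a receptor. With a minimum of 10 reads in at least 3 samples, 23 of the 44 rows could be tested. Each of these had at least 1 sample with 10 reads in both groups, but Tnfsf13 had 3 in Ctrl and only 1 in KO. Its Ctrl samples, where it was higher, alone met the filter, so its call below carries that limit.

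D4M-3A is a cell line from a mouse melanoma, grown in RPMI-1640 medium with fetal calf serum, and the labels name no treatment. Bulk RNA was sequenced from 3 Ctrl samples, which carried an empty lentiviral control construct. The 3 Nfkbiz KO samples carried a CRISPR-Cas9 construct directed at Nfkbiz. Both groups share antibiotic selection. The methods name more than 1 CRISPR construct without saying which were used in D4M-3A, so a shared vector and shared Cas9 are not given. Nor do they say whether the KO cells were a clone or a pool, or that the samples came from more than 1 transduction. The comparison asks which transcripts differ once Nfkbiz, which encodes the nuclear NF-κB co-activator IκBζ, is targeted.

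Ligands of the TNF superfamily are trimers, anchored in the membrane or released from it, and each clusters its receptors on a neighbouring cell or on the same cell. Receptors with a death domain recruit FADD or TRADD and can start caspase-driven or RIPK-driven death, whereas the remaining signalling receptors bind TRAF proteins and lead to canonical or noncanonical NF-κB, and decoy receptors take up ligand without signalling. Tumour cells commonly carry the death-domain receptors for TRAIL, FasL and TNF, and several of the genes are themselves NF-κB targets.

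Libraries held between 32219900 and 44927203 gene reads, of which 96.5% to 96.9% mapped to 1 place. A count of 0 in a library therefore allows up to 0.0668 to 0.0931 CPM (counts scaled to library size), taken as 3 reads and covering counting error only. Nfkbiz itself was at 69.1, 75.2 and 63.4 TPM (transcript level scaled for length and depth) in the Ctrl samples and at 34.8, 34.7 and 35.1 TPM in the KO samples. All KO samples lay below all Ctrl samples, and Nfkbiz fell by 0.98 on the log2 scale (SE 0.056, adjusted p = 5.6e-08). All adjusted p-values below, unless another tool is named, come from edgeR's quasi-likelihood test, corrected over every gene tested by the Benjamini-Hochberg method. Nfkbiz RNA was reduced rather than lost. Protein was not measured in these data, although the paper reports that depletion of IκBζ in D4M-3A cells was checked by immunoblot. Ctrl replicate 1 stood apart somewhat, with 55 genes more than 2-fold from the mean of its group mates against 15 to 33 genes in the other libraries, so member counts are also given without it. The melanocyte genes Sox10 and Tyr had 0 reads in all 6 libraries, and the 8 melanocyte markers summed to between 1.27 and 1.98 TPM, led by Mitf at up to 1.21 TPM, so melanocyte-defining genes were absent or low in the cells labelled as melanoma. Immune markers, 12 genes of which Cd3e, Nkg7 and Itgax had 0 reads, summed to 2.05 to 2.70 TPM in Ctrl and 2.00 to 4.26 TPM in KO, and only Cd68 of them could be tested. Endothelial markers summed to 0.550 to 0.827 TPM in Ctrl and to 1.32 to 1.85 TPM in KO, through Cdh5 (0.548 and 1.54 TPM, edgeR adjusted p = 0.0023). The 4 keratinocyte markers summed to 2.45 to 3.41 TPM in Ctrl and 2.47 to 2.51 TPM in KO. The part of these marker levels in the results below was not tested, and in bulk samples fewer cells of a type cannot be told apart from less RNA per cell.

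Of the 23 tested members, 6 were higher in Nfkbiz KO (26.1% of the members, against 18.0% of all 14533 genes tested) and 7 were lower (30.4%, against 18.2% of all genes) at an adjusted p of 0.05 or less. The 6 that rose were the ligand Tnfsf10, the decoy receptors Tnfrsf11b and Tnfrsf22, and the TRAF-binding receptors Tnfrsf9, Tnfrsf14 and Tnfrsf12a. The 7 that fell were the ligands Tnfsf13 and Tnfsf9, the death-domain receptors Fas and Tnfrsf1a, and the TRAF-binding receptors Tnfrsf18, Tnfrsf1b and Ltbr. None of the 4 tested death-domain receptors rose (against 18.0% of all genes), and none of the 4 tested decoy receptors fell (against 18.2%). With 4 genes in a class, these counts were not read as a result about the class. With limma on log2(TPM + 1) in place of edgeR on read counts the split was 6 higher and 3 lower, where over all genes 2992 were higher and 1323 lower. Both the scale and the test differ there, and so can the reads behind the values. The median log2 change of all genes was 0.061 in place of -0.016. With a change of at least 1.5-fold as well, 7 of the 23 members passed (30.4%, against 11.5% of all genes). With the study's thresholds of a fold above 2 and a difference above 4, here taken in TPM, 3 members passed (13.0%, against 1.78% of all genes): Tnfsf10, Tnfrsf11b and Fas. In 14 members (60.9%, against 48.2% of all genes) the 3 TMM-normalised CPM values of one group did not overlap those of the other, which were the 13 called members and Tnfrsf10b. The median log2 change of the 23 members was -0.20, and that of all genes tested was -0.016. Without Ctrl replicate 1, 10 of the 13 calls were made, and Ltbr, Tnfrsf12a and Tnfsf9 were not. Without KO replicate 3, 8 calls were made, of which 5 were higher and 3 lower, and Ltbr, Tnfrsf1a, Tnfsf13, Tnfsf9 and Tnfrsf12a were not called.

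**Figure D1:**
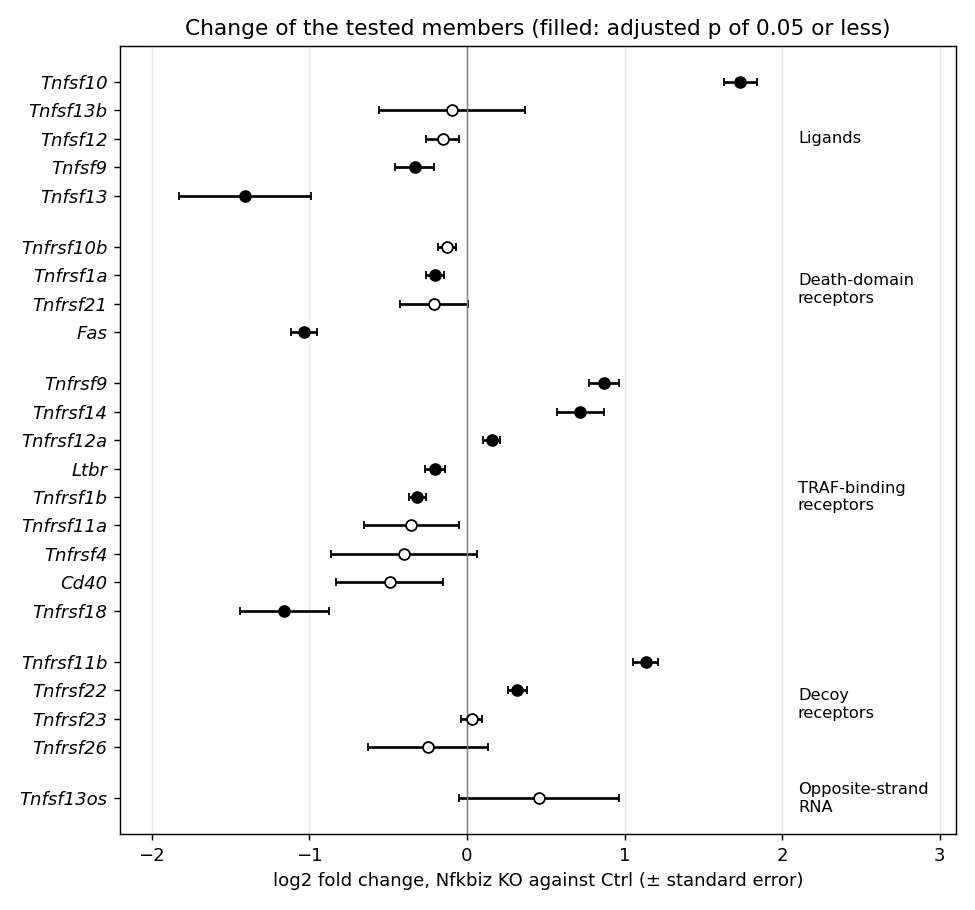
Log2 fold change of each of the 23 tested members in Nfkbiz KO against Ctrl (horizontal axis, points with standard errors), grouped by role, with filled points for an adjusted p of 0.05 or less. Tnfsf10 lies farthest to the right at 1.73 and Tnfsf13 farthest to the left at -1.41, the latter with the wider error.

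Short stretches before the RefSeq start sites are shown for members that changed by at least 1.5-fold and hold a match to at least 1 of 4 motifs. Promoters came from RefSeq (build GRCm38.p6), and 15 of the 23 tested members and 10 of the 13 called ones had one. The 250 bases before each start were searched on both strands for an NF-κB consensus, found in 7.25% of all 32851 promoters, a STAT motif TTCNNNGAA (7.02%), a pair of GAAA runs 2 bases apart as in interferon-stimulated response elements (2.98%), and an AP-1 motif TGANTCA (6.75%). Capitals mark the match in each line, written 5′ to 3′ along the gene's strand. All sites lie upstream of the RefSeq start of their own window, although GENCODE places some transcript starts farther upstream. Of the matches printed below, only the Fas matches precede every annotated exon of their gene. The Tnfrsf9 STAT match precedes the exon bases found in its own window, but that window lies downstream of the other Tnfrsf9 start. The other printed matches lie past the first exon bases of a GENCODE transcript and can lie inside an exon of it. A match describes letters only and is not a bound site.

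The first 3 lines come from the promoter of the second Tnfrsf9 start (chr4:150927749-150927998, plus strand), the single window among the tested members with an NF-κB match.
Tnfrsf9 NF-κB: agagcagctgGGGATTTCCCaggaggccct
Tnfrsf9 AP-1: gaggccctgctcagtTGAGTCAcaggtcct
Tnfrsf9 STAT: gcaacagctgaTTCCAAGAAacccttcaga

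The NF-κB match above starts 42 bases before that start, and a second, overlapping match begins 43 bases before it. The other Tnfrsf9 window (chr4:150919905-150920154) held none of the motifs. Tnfrsf14 (chr4:154928122-154928151, minus strand), Tnfrsf18 (chr4:156026212-156026241, plus strand) and Tnfsf13 (chr11:69685670-69685699, minus strand) had 1 match each.
Tnfrsf14 GAAA pair: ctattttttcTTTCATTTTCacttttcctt
Tnfrsf18 STAT: ctgctctacacTTCACAGAAggcctttaca
Tnfsf13 AP-1: ctcattcatgccTGAGTCAgagtctaccac

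For Fas, which held an AP-1 and a STAT match, the 192 bases that precede every annotated exon are given (chr19:34290409-34290600, plus strand).
Fas: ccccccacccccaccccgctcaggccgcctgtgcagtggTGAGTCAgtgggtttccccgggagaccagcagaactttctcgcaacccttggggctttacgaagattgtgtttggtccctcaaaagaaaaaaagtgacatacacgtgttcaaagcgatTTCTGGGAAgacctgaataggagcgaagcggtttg

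Of the 15 tested members with a promoter, 5 held the STAT motif (Tnfrsf1a, Tnfrsf1b, Tnfrsf9, Tnfrsf18 and Fas), of which Tnfrsf9 rose and the other 4 fell. AP-1 was found in 4 of the 15, the GAAA pair in 3 and the NF-κB consensus in 1. Over all promoters the shares were 7.02% (STAT), 6.75% (AP-1), 2.98% (GAAA pair) and 7.25% (NF-κB). With so few genes, these counts were not read as a result. The Tnfrsf1a window held no bases ahead of GENCODE exon sequence. Tnfsf10, whose promoter window is chr3:27316827-27317076, held none of the 4 motifs, and Tnfrsf11b and Tnfrsf22 had no entry.

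Most ligands of the family were at or near 0. Of the 17 ligands, 6 had 0 reads in all 6 samples (Tnfsf15, Tnfsf8, Ltb, Cd70, Tnfsf14 and Cd40lg), and a further 6 had too few reads to test. Tnf, the founding ligand, had 0, 4 and 0 reads in Ctrl and 2, 3 and 6 reads in KO. Tnfsf11, which encodes RANKL, had 1 to 6 reads per sample, Tnfsf4 (OX40L) and Tnfsf18 (GITRL) reached 5 and 4 reads, Lta reached 3, and Fasl had 2 reads in KO replicate 1 and none elsewhere. The 5 ligands left to test were Tnfsf9, Tnfsf10, Tnfsf12, Tnfsf13 and Tnfsf13b.

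Tnfsf10 encodes TRAIL, the ligand of the mouse death receptor Tnfrsf10b (chr3:27371033-27396576, plus strand, GRCm39). It was at 2.92, 3.06 and 2.41 TPM in the Ctrl samples and at 9.13, 10.7 and 10.7 TPM in the KO samples. The lowest KO sample lay well above the highest Ctrl sample. The means were 2.80 ± 0.34 and 10.2 ± 0.90 TPM (SD, n = 3 each), and the log2 fold change was 1.73 (SE 0.10, 3.33-fold, edgeR's quasi-likelihood test, adjusted p = 9.2e-08), which was the largest rise of any member and passed under all 14 alternatives tried.

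Tnfsf13 encodes APRIL, a ligand of B-lineage receptors (chr11:69573403-69576610, minus strand, GRCm39). It was at 1.13, 1.53 and 1.94 TPM in Ctrl and at 1.09, 0.495 and 0.387 TPM in KO, on 20, 27 and 42 reads against 16, 9 and 8 reads. KO replicate 1 lay just under the lowest Ctrl sample, and the other 2 KO samples lay clearly lower. Tnfsf13 fell by 1.41 on the log2 scale (SE 0.42, edgeR adjusted p = 0.019), and the call was lost without Ctrl replicate 3, KO replicate 2 or KO replicate 3 (adjusted p = 0.070, 0.077 and 0.088) and with limma on both TPM scales (adjusted p = 0.064 and 0.076), which made 5 of 14 alternatives. Of its reads, 57.4% mapped to 1 place. The gene lies within the span of Tnfsf13os and beside Tnfsf12, it overlaps the readthrough gene Tnfsfm13, and counting did not use strand, so its reads cannot be fully told apart from theirs. With uniquely mapped reads alone the log2 fold change was -1.23 for Tnfsf13 (edgeR adjusted p = 0.033), 0.06 for Tnfsfm13 (adjusted p = 0.82) and 0.20 for Tnfsf13os (adjusted p = 0.79). Tnfsf13 had 13, 18 and 18 such reads in Ctrl and 8, 8 and 5 in KO. It thus passed the filter through the Ctrl samples alone, so that fit, although counted among the 14 alternatives, cannot serve as support for the fall. In the main fit, too, the Ctrl samples alone were enough to meet the filter. With all reads the log2 fold change was 0.17 for Tnfsfm13 (adjusted p = 0.43) and, on 3 to 13 reads per sample, 0.46 for Tnfsf13os (adjusted p = 0.53).

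Tnfsf9 encodes 4-1BB ligand, a costimulatory ligand for T cells (chr17:57412298-57414769, plus strand, GRCm39). It was at 23.6, 20.6 and 19.1 TPM in Ctrl and at 20.8, 16.2 and 17.7 TPM in KO, so that on the TPM scale KO replicate 1 overlapped the Ctrl samples. The log2 fold change was -0.33 (SE 0.12, edgeR adjusted p = 0.0497), close to the threshold. The call was lost in 7 of 14 alternatives, among them leaving out Ctrl replicate 1, KO replicate 2 or KO replicate 3 (adjusted p = 0.18, 0.19 and 0.13).

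Tnfsf12 encodes TWEAK, the ligand of Tnfrsf12a, and was the ligand with the highest level. It ranged from 30.7 to 37.1 TPM in Ctrl and from 31.1 to 37.0 TPM in KO, with the ranges fully overlapping (log2 fold change -0.15, SE 0.11, edgeR adjusted p = 0.28). Of its reads, 66.6% mapped to 1 place, and the gene overlaps the readthrough gene Tnfsfm13, so its level cannot be fully told apart from that gene's. With uniquely mapped reads alone the log2 fold change of Tnfsf12 was -0.17 (edgeR adjusted p = 0.26). Tnfsf13b, which encodes the B-cell survival factor BAFF, stayed at or below 0.0661 TPM in every sample (log2 fold change -0.09, SE 0.46, adjusted p = 0.90).

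**Figure D2:**
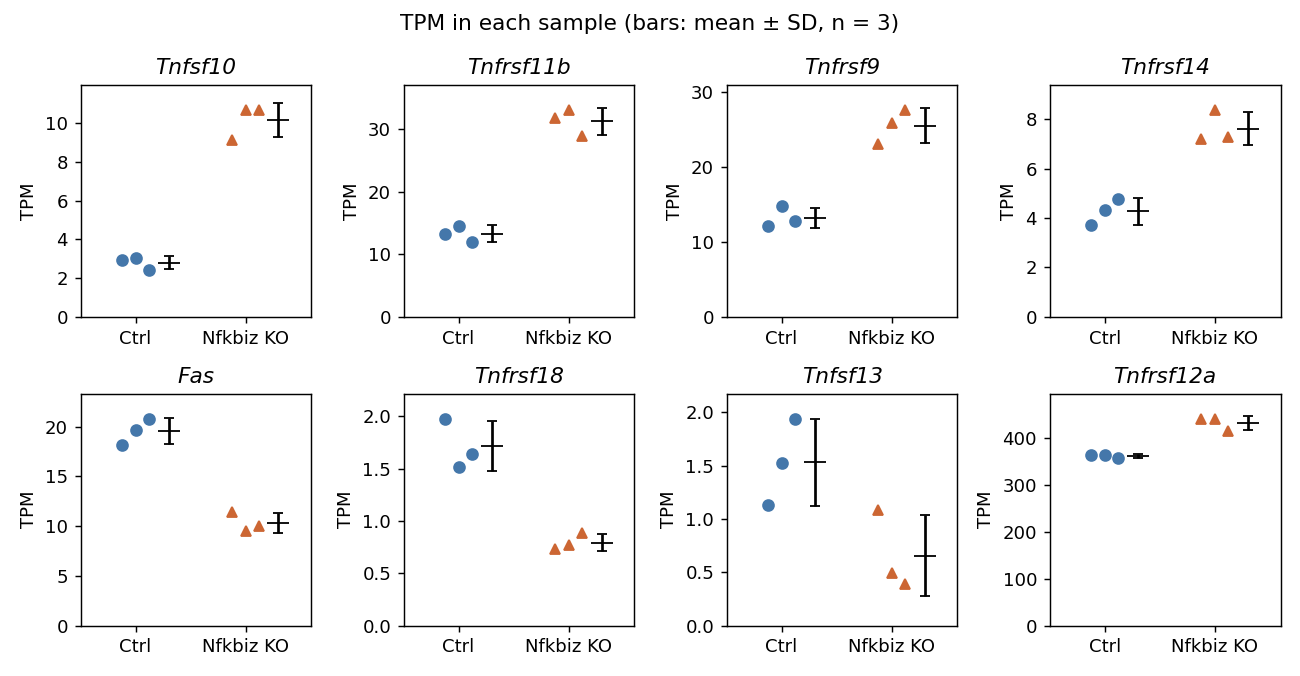
TPM in each of the 3 Ctrl samples (circles) and the 3 Nfkbiz KO samples (triangles) for the 7 members that passed the test with at least a 1.5-fold change and for Tnfrsf12a, with the mean and SD beside each group and vertical axes that start at 0. Groups are apart in every panel, and the gap is smallest for Tnfsf13, at 1.09 against 1.13 TPM.

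Among the 7 death-domain receptors, 4 could be tested: Fas and Tnfrsf1a fell, while Tnfrsf10b and Tnfrsf21 did not pass. Edar had 0 reads, Ngfr had at most 6 reads, and Tnfrsf25 (DR3) had 5 to 15 reads per sample.

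Fas encodes the receptor of FasL and starts apoptosis through FADD and caspase-8 (chr19:34268001-34305173, plus strand, GRCm39). It was at 18.2, 19.7 and 20.8 TPM in Ctrl and at 11.4, 9.55 and 10.0 TPM in KO. Every KO sample lay below every Ctrl sample. The means were 19.6 ± 1.3 and 10.3 ± 0.98 TPM (SD, n = 3 each), so that Fas fell by 1.03 on the log2 scale (SE 0.084, edgeR's quasi-likelihood test, adjusted p = 1.1e-06), and it passed under all 14 alternatives.

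Tnfrsf1a encodes TNFR1, the broadly expressed receptor of TNF (chr6:125325566-125339632, plus strand, GRCm39). It stood at 140, 134 and 134 TPM in Ctrl and at 128, 130 and 123 TPM in KO. The groups were apart but close, and the log2 fold change was -0.20 (SE 0.056, edgeR adjusted p = 0.014). The call was lost with limma on both TPM scales (adjusted p = 0.080 and 0.076) and without KO replicate 1 or KO replicate 3 (adjusted p = 0.057 and 0.074).

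Tnfrsf10b, the mouse death receptor for TRAIL also called DR5, was at 19.0, 20.1 and 18.2 TPM in Ctrl and at 17.8, 19.5 and 19.1 TPM in KO. The TPM ranges overlapped, and the log2 fold change of -0.13 (SE 0.060, edgeR adjusted p = 0.12) did not pass, although the CPM values did not overlap. Tnfrsf21, or DR6, was near 1.05 TPM in Ctrl and 1.04 TPM in KO (log2 fold change -0.21, SE 0.22, adjusted p = 0.50).

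The TRAF-binding receptors were the largest group, with 15 members of which 9 were tested. Of these, 3 rose (Tnfrsf9, Tnfrsf14 and Tnfrsf12a), 3 fell (Tnfrsf18, Tnfrsf1b and Ltbr) and 3 did not pass. Of the 6 not tested, Tnfrsf13b had 0 reads, and Cd27, Tnfrsf17, Tnfrsf19, Tnfrsf8 and Tnfrsf13c had at most 3 reads in any sample.

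Tnfrsf9 encodes 4-1BB (CD137), a costimulatory receptor best known on activated lymphocytes (chr4:150999019-151030559, plus strand, GRCm39). It was at 12.1, 14.8 and 12.8 TPM in Ctrl and at 23.1, 25.9 and 27.7 TPM in KO, with the lowest KO sample above the highest Ctrl sample. The log2 fold change was 0.87 (SE 0.096, 1.83-fold, edgeR adjusted p = 1.7e-05), and the call held under all 14 alternatives. Chromosome 4 carries 9 of the 44 members, Tnfrsf9, Tnfrsf14, Tnfrsf18 and Tnfrsf1b among them, of which the first pair rose and the second pair fell.

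Tnfrsf14 encodes HVEM, a receptor of LIGHT and of the inhibitory receptor BTLA (chr4:155005126-155013020, minus strand, GRCm39). It was at 3.72, 4.31 and 4.79 TPM in Ctrl and at 7.20, 8.38 and 7.27 TPM in KO. No KO sample overlapped the Ctrl samples, and the log2 fold change was 0.72 (SE 0.15, 1.65-fold, edgeR adjusted p = 0.0023). This call, too, held under all 14 alternatives.

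Tnfrsf18 encodes GITR, a costimulatory receptor known from regulatory T cells (chr4:156110621-156113352, plus strand, GRCm39). It was low in all samples, at 1.98, 1.52 and 1.64 TPM in Ctrl and at 0.730, 0.767 and 0.883 TPM in KO. Each KO sample lay below each Ctrl sample, on 39 to 54 reads against 15 to 29 reads. Tnfrsf18 fell by 1.16 on the log2 scale (SE 0.28, 2.23-fold, edgeR adjusted p = 0.0065). Since 63.5% of its reads mapped to 1 place, the change was also taken from uniquely mapped reads, where it was -1.19 (adjusted p = 0.0091). Its neighbour Tnfrsf4 (OX40), which ends 9551 bases before it on the same strand, was at 0.339 to 1.16 TPM in Ctrl and 0.406 to 1.06 TPM in KO with overlapping ranges (log2 fold change -0.40, SE 0.46, adjusted p = 0.54).

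Tnfrsf12a encodes Fn14, the receptor of TWEAK, and had the highest level of the family (chr17:23894416-23896468, minus strand, GRCm39). It stood at 364, 365 and 359 TPM in Ctrl and at 442, 443 and 416 TPM in KO. The groups did not overlap, and the gene made up 43.4% to 44.2% of the summed receptor TPM in Ctrl and 47.4% to 48.5% in KO. On the scale of read counts the rise was small, at 0.16 on the log2 scale (SE 0.054, 1.11-fold, edgeR adjusted p = 0.038). The call was lost in 6 of the 14 alternatives, which were the replicate block (adjusted p = 0.060) and the omission of any sample but Ctrl replicate 3 (adjusted p from 0.067 to 0.15).

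Tnfrsf1b encodes TNFR2, the second TNF receptor, which lacks a death domain (chr4:144938938-144973477, minus strand, GRCm39). It was at 77.3, 79.7 and 73.5 TPM in Ctrl and at 63.8, 68.2 and 65.4 TPM in KO, without overlap. The log2 fold change was -0.32 (SE 0.053, 1.24-fold lower, edgeR adjusted p = 0.00056), and the call held under all 14 alternatives.

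Ltbr, the lymphotoxin beta receptor (chr6:125283534-125290886, minus strand, GRCm39), was at 112, 110 and 111 TPM in Ctrl and at 104, 111.5 and 96.2 TPM in KO. KO replicate 2 lay among the Ctrl samples on this scale. The log2 fold change was -0.21 (SE 0.064, edgeR adjusted p = 0.024), and the call was lost in 5 of 14 alternatives, which were limma on both TPM scales (adjusted p = 0.235 and 0.238) and the omission of Ctrl replicate 1, KO replicate 1 or KO replicate 3 (adjusted p = 0.056, 0.086 and 0.13). Cd40, the receptor of CD40L, and Tnfrsf11a, or RANK, both stayed under 1 TPM in all samples and did not pass (log2 fold changes of -0.49, SE 0.34, and -0.35, SE 0.30).

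All 4 receptors grouped as decoys could be tested, and Tnfrsf11b and Tnfrsf22 rose. Tnfrsf11b encodes osteoprotegerin, a secreted receptor that takes up RANKL and can bind TRAIL (chr15:54114015-54142075, minus strand, GRCm39). It was at 13.3, 14.6 and 11.9 TPM in Ctrl and at 31.8, 33.1 and 28.9 TPM in KO, and the groups were far apart. The means were 13.3 ± 1.3 and 31.3 ± 2.2 TPM (SD, n = 3 each), with a log2 fold change of 1.13 (SE 0.082, 2.19-fold, edgeR's quasi-likelihood test, adjusted p = 4.2e-07). It passed under all 14 alternatives.

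Tnfrsf22 and Tnfrsf23 encode mouse TRAIL-binding receptors without a death domain, and with Tnfrsf26 they lie side by side on chromosome 7, all on the minus strand (chr7:143161396-143239611 in GRCm39 from the start of Tnfrsf26 to the end of Tnfrsf23). Tnfrsf22 was at 29.7, 32.2 and 26.1 TPM in Ctrl and at 38.7, 38.7 and 39.2 TPM in KO, a non-overlapping rise with a log2 fold change of 0.32 (SE 0.062, edgeR adjusted p = 0.0015). Tnfrsf23 was at 34.3, 40.9 and 33.5 TPM in Ctrl and at 38.5, 38.8 and 40.9 TPM in KO, where Ctrl replicate 2 lay as high as the KO samples (log2 fold change 0.03, SE 0.065, adjusted p = 0.76). Tnfrsf26 stayed at or below 0.576 TPM in every sample (log2 fold change -0.25, SE 0.38, adjusted p = 0.66). Whether the change of Tnfrsf22 differed from that of its neighbours was not tested.

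**Figure D3:**
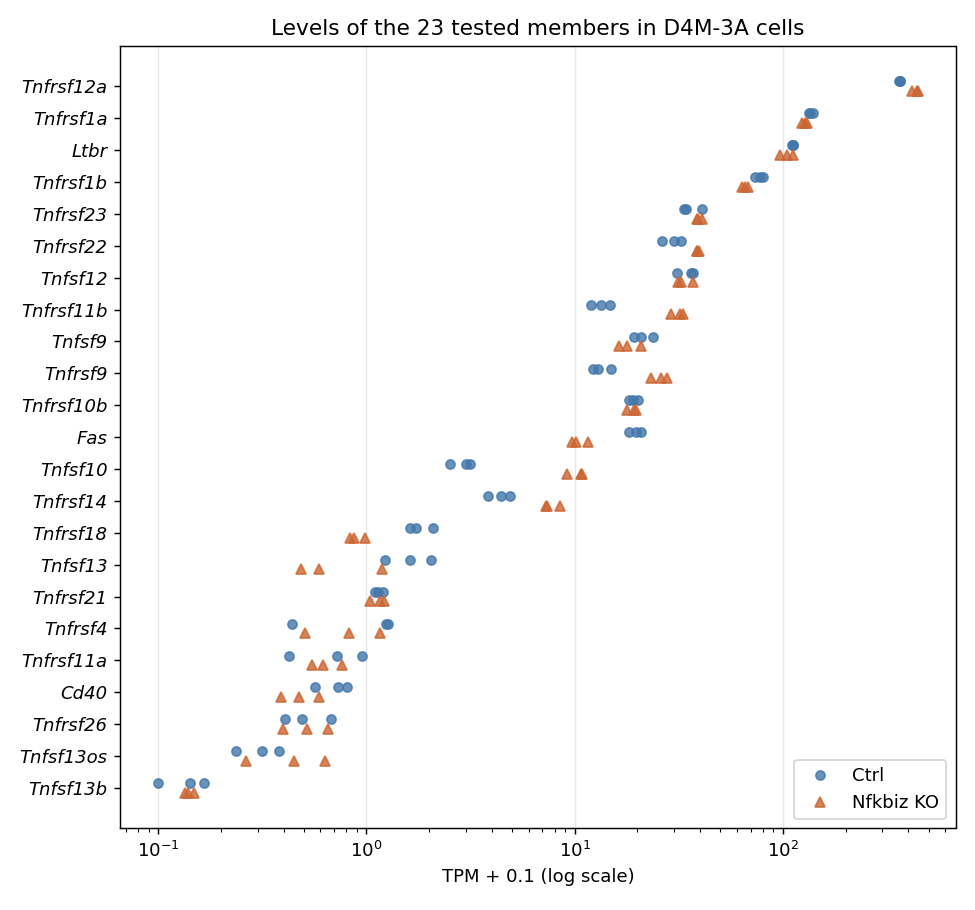
TPM plus 0.1 on a log axis in each sample (circles Ctrl, triangles Nfkbiz KO) for the 23 tested members, ordered by their mean. Tnfrsf12a, Tnfrsf1a, Ltbr and Tnfrsf1b lead the order at 398, 131, 108 and 71.3 TPM, and Tnfsf13b is last at 0.0385 TPM.

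By level, the family in these cells was mostly receptors. Summed over members, ligands reached 56.4 to 63.9 TPM in Ctrl and 60.4 to 65.0 TPM in KO, and receptors 811 to 841 TPM in Ctrl and 877 to 930 TPM in KO. The first 4 places in the order, Tnfrsf12a, Tnfrsf1a, Ltbr and Tnfrsf1b, did not overlap their neighbours over the 6 samples, whereas from Tnfrsf23 down most neighbours overlapped. Of the tested members, 12 were above 10 TPM in both groups and 6 were below 1 TPM on average.

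Known ligand and receptor pairs were often incomplete at the RNA level. Of 27 listed pairs, 6 had both sides tested, and they involved 3 ligands: Tnfsf9 with Tnfrsf9, Tnfsf12 with Tnfrsf12a, and Tnfsf10 with Tnfrsf10b, Tnfrsf22, Tnfrsf23 and Tnfrsf11b. In 13 pairs the receptor was tested and the ligand was not, among them Tnf with Tnfrsf1a and Tnfrsf1b, Fasl with Fas, Ltb with Ltbr, Tnfsf14 with Tnfrsf14 and Tnfsf18 with Tnfrsf18. Within the 4-1BB pair the receptor rose by 0.87 and the ligand fell by 0.33 on the log2 scale. Within the TRAIL group the ligand Tnfsf10 and the decoys Tnfrsf11b and Tnfrsf22 were higher in KO, while the decoy Tnfrsf23 (0.03) and the death receptor Tnfrsf10b (-0.13) did not pass.

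Genes that act with the receptors were taken from lists by role, and the counts of each list stand against 18.0% of all genes tested that were higher and 18.2% that were lower. Among 12 adaptors and TRAFs, 2 rose (16.7%) and 3 fell (25.0%), shares near those of all genes, and the median log2 change was -0.04 against -0.016 over all genes. Traf1, a TRAF known as an NF-κB target that binds TNFR2 complexes, was at 1.30, 1.23 and 1.33 TPM in Ctrl and at 4.66, 4.69 and 4.15 TPM in KO. All KO samples exceeded all Ctrl samples (log2 fold change 1.74, SE 0.11, edgeR adjusted p = 1.1e-07). Edaradd, the adaptor of the receptor Edar, fell by 1.07 (SE 0.26, 0.779 to 0.387 TPM, adjusted p = 0.0073), while Traf3 (log2 fold change 0.35), Traf4 (-0.34) and Tradd (-0.38) moved less. Of the 3 relatives whose symbols the rule did not take, Eda2r, a receptor of ectodysplasin, rose from 14.6 to 25.5 TPM (log2 fold change 0.72, SE 0.089, adjusted p = 4.9e-05), Relt changed by -0.02 and Eda was not tested.

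Among 6 tested death effectors, 3 rose (50%, against 18.0% of all genes) and 1 fell (16.7%, against 18.2%), with a median log2 change of 0.25 against -0.016 over all genes. Cflar, which encodes the caspase-8 inhibitor c-FLIP, was at 25.1, 29.1 and 24.0 TPM in Ctrl and at 47.9, 46.8 and 49.4 TPM in KO (log2 fold change 0.77, SE 0.059). Mlkl, the executor of necroptosis, was at 174, 183 and 168 TPM in Ctrl and at 296, 292 and 300 TPM in KO (log2 fold change 0.64, SE 0.050). Neither gene's groups overlapped, and Bid (0.57), which links caspase-8 to mitochondria, rose as well. Casp6, an executioner caspase, was the one that fell, from 17.4, 19.0 and 19.0 TPM to 10.8, 9.10 and 9.94 TPM (log2 fold change -1.01, SE 0.080). These 4 genes include both inhibitors and effectors of death, and Ripk3, the kinase that activates MLKL, had too few reads to test.

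Changes in the lists for receptor complexes, noncanonical NF-κB and shedding stayed below 1.5-fold. Of 14 genes for kinases and ubiquitin ligases of the receptor complexes, 3 rose (21.4%, against 18.0% of all genes), which were Birc3, Rnf31 and Tab2 with log2 fold changes of 0.20 to 0.28. Tab1 alone fell (7.14%, against 18.2%) with a log2 fold change of -0.27, and it was no longer called without Ctrl replicate 1 (edgeR adjusted p = 0.081). Of 4 genes of noncanonical NF-κB, Nfkb2 (0.37) and Relb (0.27) rose (50%, against 18.0%), and Map3k14 (-0.34), which encodes the kinase NIK, fell (25.0%, against 18.2%). Of 8 genes for ectodomain shedding and intramembrane cleavage, Timp3, Sppl2a and Sppl2b rose by 0.23 to 0.36, and the TNF convertase Adam17 and its partners Rhbdf1 and Rhbdf2 fell by 0.18 to 0.30. These were 37.5% of the list in each direction, against 18.0% and 18.2% of all genes, and Rhbdf1 was no longer called without Ctrl replicate 1 (edgeR adjusted p = 0.097).

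Of 6 tested Tnfaip genes, named after their induction by TNF, 2 rose and 2 fell (33.3% each, against 18.0% and 18.2% of all genes). Tnfaip6, which encodes the hyaluronan-binding protein TSG-6, was at 3.07, 2.76 and 3.81 TPM in Ctrl and at 0.260, 0.368 and 0.139 TPM in KO. The groups were far apart, and Tnfaip6 fell by 3.79 on the log2 scale (SE 0.38, edgeR adjusted p = 7.9e-06), the largest change among the genes of these lists. Tnfaip8 also fell (-0.49), whereas Tnfaip3 (0.46), which encodes the NF-κB inhibitor A20, and Tnfaip2 (0.28) rose. Of 4 tested C1qtnf genes, whose proteins share the fold of TNF, none rose and 2 fell (50%, against 18.2% of all genes), where C1qtnf1 fell by 1.24 (SE 0.12, 14.7 to 6.52 TPM) and C1qtnf6 by 0.41.

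**Figure D4:**
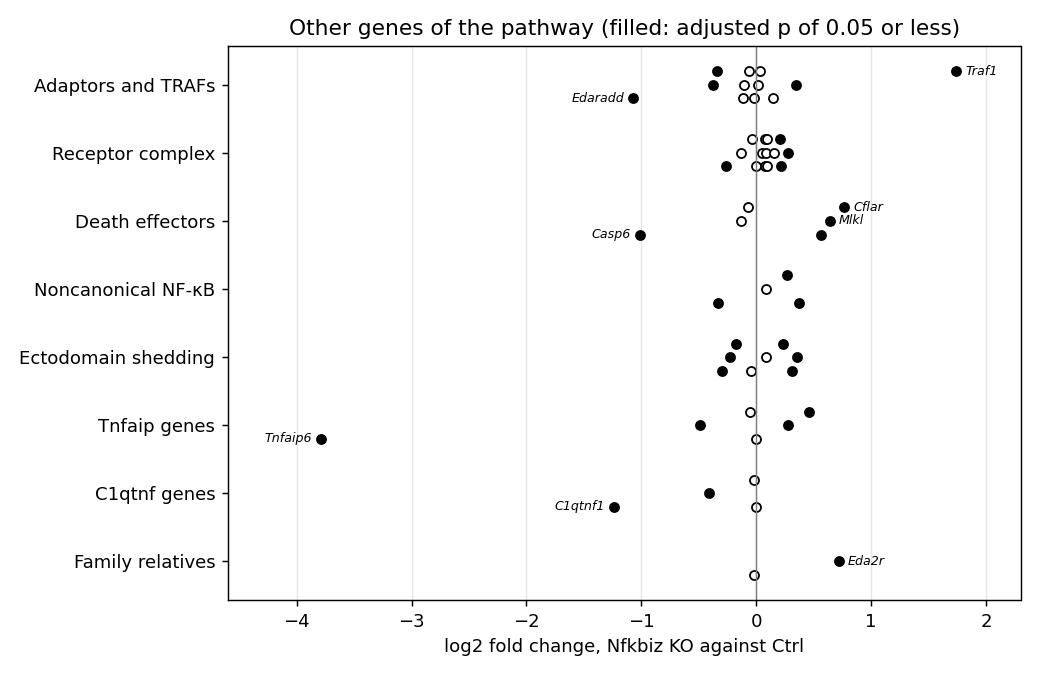
Log2 fold change, KO over Ctrl (horizontal axis), of each tested gene of 8 lists (rows), with filled points for an adjusted p of 0.05 or less and names for those that changed by at least 1.5-fold. Tnfaip6 at -3.79 and Traf1 at 1.74 lie farthest apart.

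The calls differed in how they held up to processing. Of the 13 called members, 8 passed under every one of the 14 alternatives, which were Tnfsf10, Tnfrsf11b, Tnfrsf9, Tnfrsf14, Tnfrsf22, Fas, Tnfrsf18 and Tnfrsf1b. The other 5, Tnfsf9, Tnfrsf12a, Ltbr, Tnfsf13 and Tnfrsf1a, kept their direction but did not pass under some. Exact two-sided permutation tests of single members could not go below p = 0.1 with 3 samples against 3, which the 14 members without overlap reached.

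**Figure D5:**
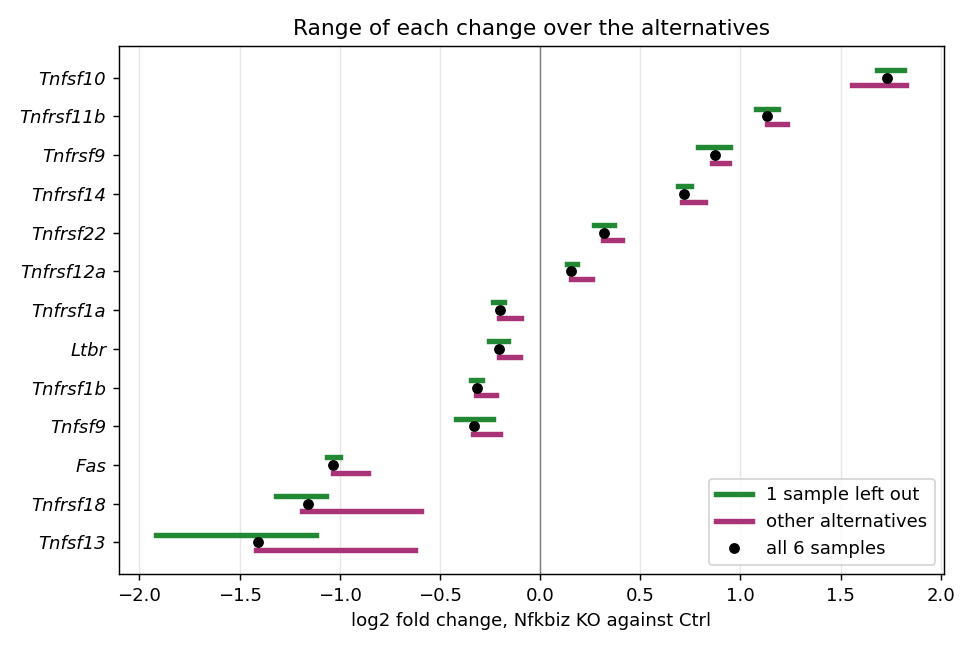
Log2 fold change of the 13 called members with all 6 samples (points), with the range over the 6 fits that leave out 1 sample (upper bars) and over the other alternatives (lower bars). No bar crosses 0, and the bars are longest for Tnfsf13, from -1.92 to -0.62 over both.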

How the data were processed

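Total RNA of 6 D4M-3A cultures (3 Ctrl, 3 Nfkbiz KO) was sequenced as paired ends. The authors mapped reads in CLC Genomics Workbench with default settings, counting pairs once, ignoring broken pairs, using both strands and allowing up to 10 places per read; their methods name GRCm39 and the submitters' processing notes GRCm38. Deposited values were total and uniquely mapped gene read counts, TPM and RPKM per gene. TPM and RPKM were normalized by the authors for transcript length and depth. TPM is not simply the gene reads rescaled. Tnfsf13b had 9 gene reads and 0 TPM in Ctrl replicate 2, and Tnfsf4 had 5 gene reads and 0 TPM in KO replicate 3. The tests on counts and the printed TPM can thus rest on different reads, and the reason was not tested.

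Total counts were tested with edgeR 4.0.16 (quasi-likelihood, TMM, at least 10 reads in 3 samples, Benjamini-Hochberg over 14533 genes) in R 4.3.3, and SE was taken as the log2 change over the root of F. Alternatives used DESeq2 1.42.0, limma 3.58.1 with a pseudocount of 1 or 0.1 TPM, RLE factors, other filters, unique reads, a replicate block and each sample left out. The procedure was tested on simulated data that gave both groups the same dispersion. The study calls the samples independent experiments and nothing else separates them, so p-values measure the spread between these samples. Counts differed more between Ctrl samples (chi-square per degree of freedom of 27.8 to 70.9) than between KO samples (3.49 to 6.2). The edgeR fit used a single dispersion per gene for both groups. Members, pairs and lists were chosen with earlier results of these data known. Named with sample values were members past adjusted p 0.05 with a 1.5-fold change and the 5 highest by TPM, and, of each list, up to 5 genes by the same limits; other members are described more briefly. Gene positions are from GENCODE on GRCm39, matched by symbol, with all 44 members placed. 1 gene of the death-effector list is not reported here and was left out of its counts.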

Additional observations from a re-analysis of the deposited data

How the results depend on the processing

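The count of members that fell was 7 with all samples and 3 under limma on log2(TPM + 1) and on log2(TPM + 0.1), and it ranged from 3 (without Nfkbiz KO replicate 3) to 7 when 1 sample was left out. The count that rose ranged from 5 to 6 over the same omissions. Members past the study's thresholds numbered 3, and were 5 with no cut-off on the difference, 1 with a difference above 4 RPKM and 2 to 3 with a sample left out; the unit of that cut-off was not given in the sources used here. Over the omissions Nfkbiz changed by -1.01 to -0.93. Genes of the receptor-complex list that fell went from 1 to 0 without Ctrl replicate 1, and those of the shedding list from 3 to 2 (Rhbdf1). Signs changed in members that were never called: Tnfsf13b was 0.0069 and 0.078 under limma on log2(TPM + 1) and log2(TPM + 0.1), and reached 0.0091 and 0.17 without Ctrl replicate 3 and Nfkbiz KO replicate 1, Tnfrsf23 was -0.0062 and -0.0011 without Ctrl replicate 1 and Nfkbiz KO replicate 3, Tnfrsf26 was 0.024 without Ctrl replicate 2 and Tnfrsf4 was 0.0065 without Ctrl replicate 3. With 1 sample left out these members thus ranged from -0.29 to 0.17 (Tnfsf13b), -0.0062 to 0.10 (Tnfrsf23), -0.46 to 0.024 (Tnfrsf26) and -0.77 to 0.0065 (Tnfrsf4). The causes were not tested. DESeq2 and RLE factors each called 12 of the 13 members, without Tnfsf9 (adjusted p = 0.054 in both). Same-numbered samples did not deviate together (r = 0.032, -0.068 and 0.020), so the numbers were not read as pairs; with the replicate block 12 of the 13 members were called, and Tnfrsf12a (0.16, adjusted p = 0.060) was not. Depth limits what can be said of the 21 members not tested, and with 3 samples a group small changes near the threshold depend on single libraries.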
